A study of Mus musculus with 7 samples.

Results

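Fibroblasts lacking p53 and Dnmt1 were profiled 2 weeks after trichostatin A (TSA) had been removed, and were set here against untreated fibroblasts lacking p53 alone. The comparison uses 2 of the 7 arrays of the series, 1 per group, and each difference was also read against the untreated p53-Dnmt1-null array to say whether it had been kept, lost or enlarged. All cells were mouse embryonic fibroblasts (MEF), and all lacked p53. The p53-Dnmt1-null cells (p53-/- Dnmt1-/-) were profiled 2 weeks after TSA removal, at 24 and 48 h of TSA, and untreated; the p53-null cells (p53-/-) were profiled at 24 and 48 h of TSA and untreated. The labels state neither the TSA dose, nor how long the cells were exposed before removal, nor whether each genotype was a single line. No after-removal array of p53-null cells is among the 7, so time in culture, the past exposure to TSA and the genotype cannot be told apart in the after-removal difference.

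Dnmt1 copies DNA methylation onto the new strand after replication, and p53 is the tumour suppressor whose loss lets fibroblasts divide without Dnmt1. Methylation of CpG-rich promoters keeps many germline genes silent in somatic cells, and at imprinted loci it marks a single parental allele. TSA inhibits histone deacetylases and so raises histone acetylation, a mark that is reversible once the drug is gone.

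Dnmt1 itself had a signal of 123 after removal and 206.5 untreated in p53-Dnmt1-null cells, against 696 in untreated p53-null cells. After removal the log2 difference was -2.39 ± 0.39 (SE), with a limma adjusted p of 0.00744. A second probe set read 105.3, 101.0 and 413.1 on the same arrays. The position of these probes with respect to the deletion is unknown here, so the gene checks the labels by direction only. Trp53 was not analysed here.

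Signals are the authors' MAS5 values, and differences are of log2(signal + 11.4), which understates the change of dim genes. The median signal was 41.9 on the after-removal array, 46.1 on the untreated p53-Dnmt1-null array and 44.0 on the untreated p53-null array. The number of features above the pooled median was 7357, 7874 and 7702 on these arrays. The ratio of the 3' to the 5' control of Actb, a measure of RNA integrity, was 1.23, 1.14 and 1.06, and that of Gapdh was 0.842, 0.834 and 0.852. The 3' control of 18S ribosomal RNA gave 93.6, 688.1 and 194.0. The part of these array-wide values in the results was not tested. Across all 9390 features the median after-removal difference was -0.10 and the median untreated difference 0.08, so small shifts are read against those medians.

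The fibroblast label was checked against 18 markers, all of which were measured. Vimentin, Vim, the intermediate filament of mesenchymal cells, had 4048 after removal and 5045 untreated in p53-Dnmt1-null cells, against 5662 in p53-null cells, and fibronectin, Fn1, had 2663 and 3408, against 4181. Both are outside the rule for named genes and are given as defining markers. They were among the 5 of the 18 within 2-fold of p53-null cells after removal, so they do not stand for the list. The summed signal of the 18 markers was 11128 after removal and 14970 untreated, against 34538 in p53-null cells. Among the 18, 3 had passed the filter only through p53-null arrays. By size 12 of the 18 were lower after removal and 1 was higher, and limma called the same numbers. For each of 3 other cell types 1 defining marker was read, and it was dim on these arrays. Some other markers of these types were higher after removal and are counted further below. The leukocyte antigen Ptprc gave 6.2, 7.5 and 4.0, the endothelial antigen Pecam1 3.9, 16.8 and 5.0, and albumin, Alb, 8.2, 14.3 and 4.5. In bulk RNA, fewer cells of a type and less RNA per cell cannot be told apart.

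After TSA removal 1364 features were at least 2-fold higher than in untreated p53-null cells, 14.5% of the 9390 tested, and 1797 lower, 19.1%, together 33.7%. With the arrays scaled to the same median the counts were 1566 higher and 1590 lower, so the excess of lower features depends on the scaling. Between the untreated arrays 886 features were higher, 9.44%, and 1002 lower, 10.7%, together 20.1%. Directly between the after-removal and the untreated p53-Dnmt1-null array, 438 were higher past 2-fold, 4.66%, and 909 lower, 9.68%, together 14.3%. With 1 array per group these are size counts without a replicate check. Counts for the gene lists below are to be read against these shares of all features. The differences from p53-null cells all share the untreated p53-null array, so an error of that array enters both of them in the same direction.

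A fitted test was possible only by borrowing spread from the 24 h and 48 h arrays. Limma with Benjamini-Hochberg adjustment called 811 features higher after removal, 8.64%, and 1179 lower, 12.6%. For the untreated difference it called 310 higher, 3.3%, and 419 lower, 4.46%. Between the after-removal and untreated p53-Dnmt1-null arrays limma called 1 feature, Malat1, as higher, 0.0106%, and 0 as lower, 0.0%, while 1676 had an unadjusted p under 0.05. Every gene that is described below as having moved between those p53-Dnmt1-null arrays, other than Malat1, did so by size only. The labels name no separate cultures, and the only spread in the fit is between the 24 h and 48 h TSA arrays of a genotype. That spread includes any effect of treatment time, and part of it may be technical. These p-values therefore do not measure the spread between cultures of untreated or after-removal cells.

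Of the 1888 untreated genotype differences, 1464, or 77.5%, were still at least 2-fold in the same direction 2 weeks after TSA removal. A difference was called kept when it was still past 2-fold and the after-removal level lay within 2-fold of the untreated p53-Dnmt1-null level, enlarged when the cells had moved at least 2-fold further from p53-null cells, and reduced when they had moved at least 2-fold closer but still differed. By this rule 1261, or 66.8%, were kept, 140 were enlarged, 63 were reduced, 419, or 22.2%, were lost and 5 had turned to the other direction. Features lower in p53-Dnmt1-null cells were kept in 749 of 1002 cases, 74.8%, and features higher in 512 of 886, 57.8%. Of all features tested, the kept ones made up 7.98% on the lower and 5.45% on the higher side. Among the lower features 88 were enlarged, 0.937% of all tested, 17 reduced, 0.181%, and 1 turned, 0.0106%, and among the higher ones 52 were enlarged, 0.554%, 46 reduced, 0.49%, and 4 turned, 0.0426%. Lost differences numbered 147 on the lower and 272 on the higher side. Of these, 35 lower and 117 higher features had moved at least 2-fold, 0.373% and 1.25% of all tested, and the remaining 112 and 155, 1.19% and 1.65%, crossed the threshold by a smaller move. Scaling the arrays to the same median gave 62 enlarged lower and 76 enlarged higher features, the opposite balance. Since the rule rests on these same arrays, the counts are a description. The fate of a single gene is less certain than its direction. Of 257 named genes with a fate, 88 had the same one in all settings tried, 41 had another against the mean of the 3 p53-null arrays and 18 with arrays scaled to the same median. Of 94 with another probe set above the filter, 62 had another fate on at least 1 of them. The fates named below are those of the brightest probe set.

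**Figure D1:**
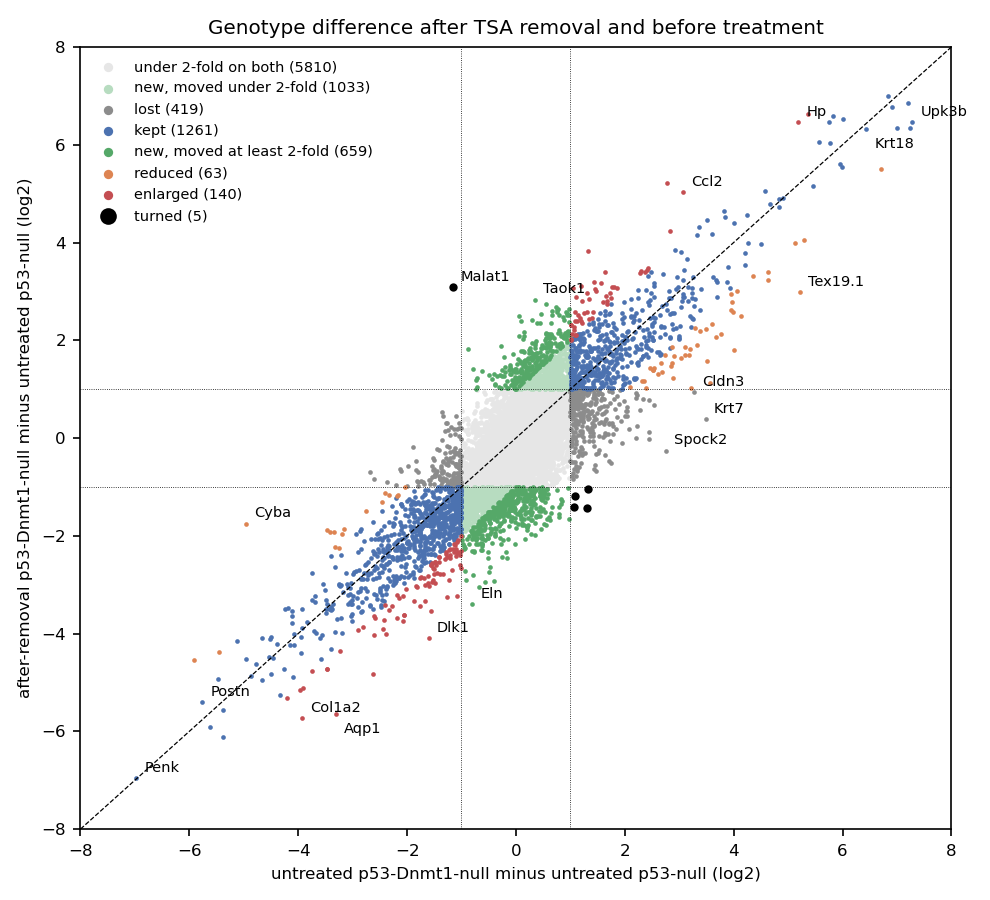
Each point is 1 of 9390 features, with the untreated genotype difference on the x axis and the after-removal difference on the y axis, both log2 and both against the same untreated p53-null array. The dashed line marks equal differences and the dotted lines 2-fold. Blue points (1261 kept) follow the dashed line, red points (140 enlarged) lie beyond it, and Malat1 is alone in the upper left.

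The share that stayed past 2-fold was higher in the bins of larger untreated difference. Of the 634 features 2-fold to 4-fold higher in untreated cells 59.6% were still 2-fold higher after removal, of the 155 between 4-fold and 8-fold 88.4%, of the 59 between 8-fold and 16-fold 96.6%, and of the 38 above that 100%. On the lower side the shares were 79.4% of 688, 97.2% of 213, 100% of 68 and 100% of 33. A difference just over 2-fold needs only a small move to count as lost, so these shares describe the rule as well as the cells.

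**Figure D2:**
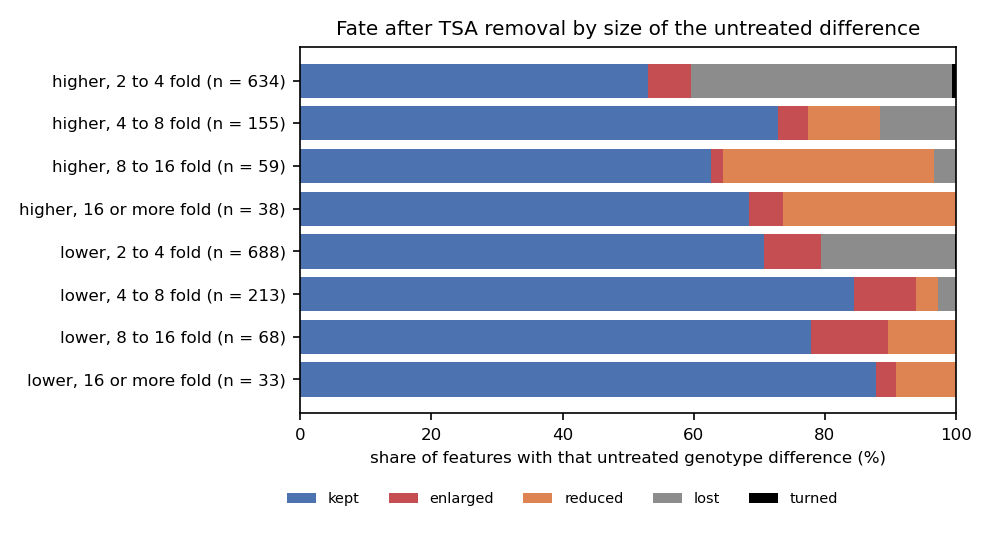
Bars give the share (%) of features in each fate class, by direction and by the fold size of the untreated difference. Lost differences (grey) number 252 of 634 higher and 141 of 688 lower features in the 2-fold to 4-fold bins and 0 in the bins above 16-fold, and reduced ones (orange) are 19 of 59 in the higher bin from 8-fold to 16-fold.

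Several of the largest kept increases were genes of simple epithelium and of mesothelium, the sheet that lines body cavities. The keratin Krt18 had 2719 after removal and 2917 untreated in p53-Dnmt1-null cells, against 22.6 in untreated p53-null cells, and its partner Krt8 had 2073 and 2081, against 58.3. The basal keratin Krt14 had 1187 and 1860.3, against 3.3. These keratins were within 2-fold of their untreated levels after removal and above every p53-null array, whose highest Krt18 signal was 37.4. Among 26 epithelial markers on the array 17 passed the filter, of which 9 were at least 2-fold higher after removal and 1 lower, with 7 higher and 1 lower by limma. The median of the 17 was 1.02 after removal and 2.51 untreated, and 11 of them had passed the filter only through p53-Dnmt1-null arrays. Without the filter the median of all 26 was 0.43 and 0.86. E-cadherin, Cdh1, the adhesion protein of epithelial junctions, had 59.5 and 66.6, against 1.0. The adhesion gene Epcam, outside the naming rule and given as a defining marker, had 3.5 and 8.0, against 1.9, with 109 in p53-Dnmt1-null cells at 24 h of TSA.

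Mesothelial markers had the highest median of any list, 3.70 after removal and 4.89 untreated over 12 measured members, 9 of which passed the filter only through p53-Dnmt1-null arrays. By size 10 were higher and 1 lower, and by limma 8 and 1. The uroplakin Upk3b, a mesothelial marker, had 2337 after removal and 4130.1 untreated, against 15.2 in p53-null cells, a difference of 6.46 ± 0.47 (SE, limma adjusted p = 0.000395). The sialomucin Podxl differed by 6.86, the membrane-bound transcription factor Myrf by 6.34, the glycoprotein Gpm6a by 5.55 and Wt1, the Wilms tumour transcription factor of mesothelium and kidney, by 5.16. All 12 had a lower log2 value after removal than untreated in these cells, their median move being -0.64 against -0.13 over all features. The surface protein mesothelin, Msln, had 225 and 512, against 3.5, and was reduced, as were Aldh1a2, which makes retinoic acid, at 116 and 288, against 0.6, and the Wnt agonist Rspo1, at 45.8 and 147, against 6.2.

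Several epithelial differences were lost. The keratin Krt7 had 24.9 after removal and 299 untreated in p53-Dnmt1-null cells, against 16.3 in p53-null cells. The tight junction protein Cldn3 had 33.9 and 216, against 12.1, and the protease inhibitor Spint2 had 66.3 and 257, against 69.8. Each differed from p53-null cells by under 2-fold after removal on the offset log2 scale, although Cldn3, at 0.95, was near the threshold, was reduced with arrays scaled to the same median, and differed by 1.27 on another probe set. Krt8, Krt18, Krt14, Cdh1 and the desmosomal gene Dsp were kept. Lad1, a protein of the epidermal basement membrane zone, had 62.3 and 255, against 34.5. The tricellular junction gene Lsr was reduced, at 217 and 458.5, against 11.5, and so was the epithelial galectin Lgals7, at 62.5 and 329, against 9.8. Grhl2, an epithelial transcription factor, had 5.8 and 80.4, against 41.4, and was below p53-null cells after removal, though its other probe sets were dim.

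**Figure D3:**
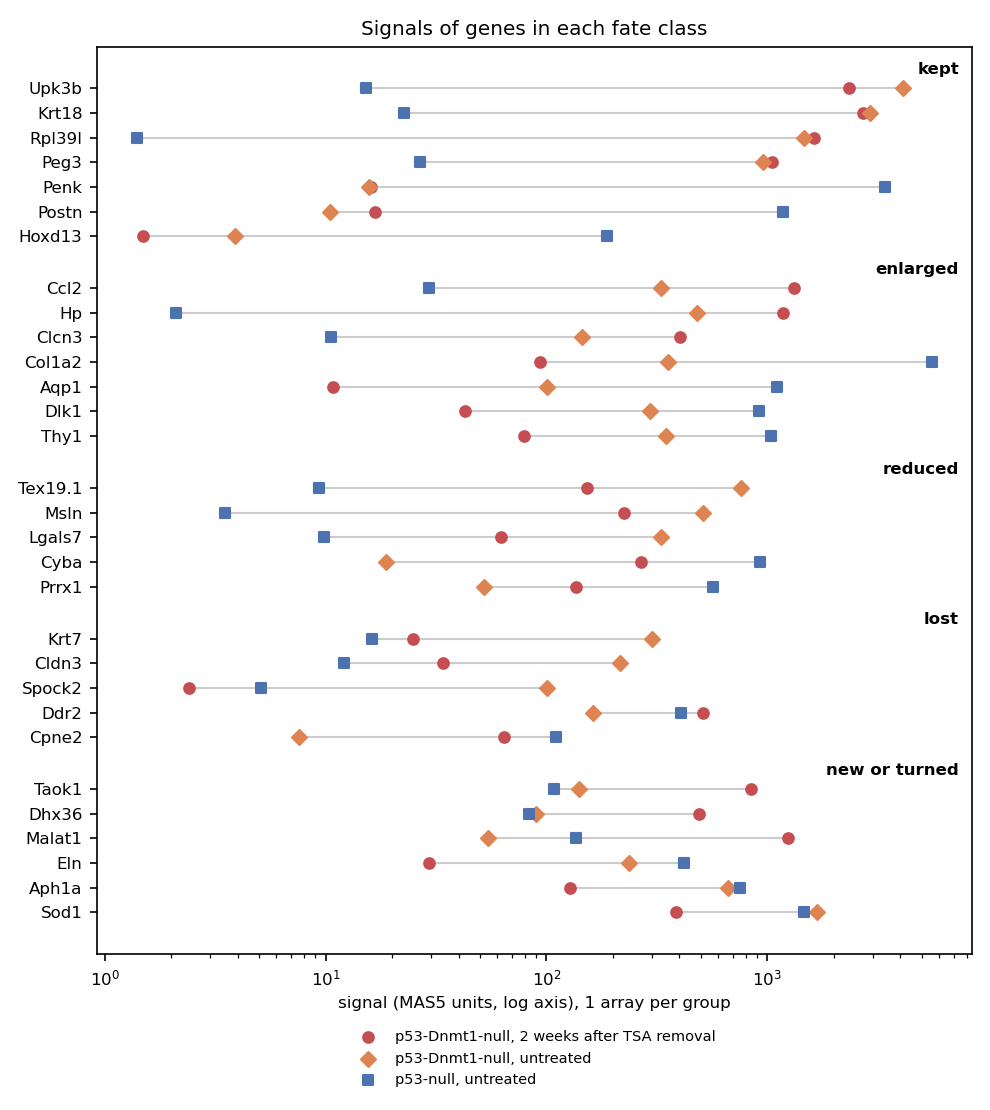
Signals (MAS5 units, log axis) of 30 named genes on the after-removal p53-Dnmt1-null array (red circles), the untreated p53-Dnmt1-null array (orange diamonds) and the untreated p53-null array (blue squares), grouped by fate. The red circle sits on the orange diamond for kept genes such as Penk, beyond it for Col1a2 and Aqp1, and beside the blue square for Krt7 and Ddr2.

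Germline genes, the class best known for silencing by promoter methylation, were mostly dim, and 10 of the 12 above the filter were higher on both p53-Dnmt1-null arrays than in p53-null cells. The array held 36 listed genes, and 12 of these exceeded the filter, all of them only through p53-Dnmt1-null arrays, so their direction is partly fixed by the filter. Without the filter all 36 had a median of 0.43 after removal and 0.41 untreated, with 11 higher and 1 lower. Of the 12, 10 were at least 2-fold higher after removal and the same number untreated, and limma called 9 higher after removal. The median of those 12, 2.89 after removal and 2.44 untreated, is given as a description. Rpl39l, a ribosomal protein paralogue used in male germ cells, had 1633 after removal and 1458 untreated, against 1.4 in p53-null cells, and with 7.01 ± 0.36 (SE, limma adjusted p = 0.000195) it had the largest after-removal difference of any named gene. The piRNA pathway genes Asz1 and Piwil2, which protect the germline from transposons, were kept, Asz1 at 577 and 296, against 29.2, and Piwil2 at 129 and 141, against 6.9. Tex15, a meiotic gene, had 158 and 79.1, against 4.8.

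The germline genes did not share a single fate. Tex19.1, expressed in germ cells and pluripotent cells, was at 153 after removal and 757 untreated in p53-Dnmt1-null cells, against 9.3 in p53-null cells. The TSA arrays of the p53-Dnmt1-null genotype had 746 and 724, so the after-removal array was the lowest of the 4 p53-Dnmt1-null arrays. The X-linked homeobox gene Rhox5 had 295 and 621, against 26.7, and Taf7l, a testis form of a general transcription factor, 14.8 and 55.9, against 1.4. Both were reduced. Tex101, a germ cell surface protein chosen here after its values were seen, had 213 and 254 at 24 and 48 h of TSA in p53-Dnmt1-null cells but 4.8 after removal and 4.1 untreated, against 7.4 in p53-null cells.

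The upstream sequences of 2 kept and 2 reduced germline genes are shown because CpG dinucleotides, in capitals, are the sites that Dnmt1 methylates. Each is the 250 bases before the annotated start, 5′ to 3′ on the gene's strand, from RefSeq on GRCm38.p6, which had an entry for 8 of the 10 germline genes that were higher.
Rpl39l: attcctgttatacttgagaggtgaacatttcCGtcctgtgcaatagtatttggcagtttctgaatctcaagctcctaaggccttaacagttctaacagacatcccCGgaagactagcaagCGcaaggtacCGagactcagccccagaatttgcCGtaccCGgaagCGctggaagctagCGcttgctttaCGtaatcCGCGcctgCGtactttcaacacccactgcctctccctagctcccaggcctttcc
Asz1: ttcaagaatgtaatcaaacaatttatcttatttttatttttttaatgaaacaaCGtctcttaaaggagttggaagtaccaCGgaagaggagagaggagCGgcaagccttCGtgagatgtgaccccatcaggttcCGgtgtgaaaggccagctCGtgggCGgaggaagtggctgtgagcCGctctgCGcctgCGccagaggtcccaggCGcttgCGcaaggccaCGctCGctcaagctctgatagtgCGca
Tex19.1: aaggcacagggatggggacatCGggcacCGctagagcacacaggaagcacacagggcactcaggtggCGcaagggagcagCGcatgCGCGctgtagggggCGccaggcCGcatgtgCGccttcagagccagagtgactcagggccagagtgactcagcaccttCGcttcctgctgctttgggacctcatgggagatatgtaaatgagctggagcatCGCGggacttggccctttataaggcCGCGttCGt
Rhox5: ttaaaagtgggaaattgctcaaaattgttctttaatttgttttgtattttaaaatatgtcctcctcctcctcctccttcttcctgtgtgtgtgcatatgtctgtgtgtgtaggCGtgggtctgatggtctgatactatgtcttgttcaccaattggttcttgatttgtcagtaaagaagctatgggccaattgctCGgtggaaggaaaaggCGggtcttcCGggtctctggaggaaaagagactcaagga
The Rpl39l stretch lies at chr16:10169978-10170227 on the plus strand and holds 12 CpG, as many or more than which are found in 33.5% of 32851 promoters of that length. The kept Asz1, at chr6:18109062-18109311 on the minus strand, and the reduced Tex19.1, at chr11:121145893-121146142 on the plus strand, hold 15 CpG each, matched or exceeded by 27.3% of promoters. Rhox5, at chrX:37754358-37754607 on the plus strand, holds 4, matched or exceeded by 62.2%. The median over all promoters was 6. The count of this dinucleotide in the window was equal for this pair of a kept and a reduced gene. A single pair cannot show how the count relates to fate. Over the 8 genes with an entry the count ran from 4 for Rhox5 to 26 for Stag3, and its relation to fate was not tested. Methylation was not measured.

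The largest kept decrease was that of the enkephalin precursor Penk, with 16.1 after removal and 15.8 untreated in p53-Dnmt1-null cells, against 3408 in p53-null cells, a difference of -6.96 ± 0.41 (SE, limma adjusted p = 0.000252). Periostin, Postn, a matrix protein of connective tissue, had 16.8 and 10.5, against 1176, and the matricellular gene Smoc2 had 10.1 and 24.3, against 1476. The lipid phosphatase Plpp3 differed by -5.92 and the membrane protein Tmem45a by -5.56. None of these genes was within 16-fold of p53-null cells on either p53-Dnmt1-null array. Of the 12 named genes with the largest decreases, 7 were kept and 5 were enlarged.

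Transcription factors of limb and body mesenchyme stayed low. Of 21 measured, 15 were at least 2-fold lower after removal and 1 was higher, against 14 and 1 untreated, and limma called 10 lower. Their median was -1.72 after removal and -1.73 untreated, and 10 of the 21 had passed the filter only through p53-null arrays. The homeobox gene Prrx2 had 49.7 and 44, against 1501, and the forkhead gene Foxc2 had 1.1 and 5.9, against 192. Prrx1, a relative of Prrx2, with 136 and 52.1, against 568, was reduced, though 2 of its other 3 probe sets were lower after removal than untreated in p53-Dnmt1-null cells. Msx1, a homeobox gene of limb mesenchyme, had 25.4 and 5.1, against 71.2, while its other probe set had 3.5 and 43.3, against 47.9. Tcf21, a mesothelial and mesenchymal factor, was the member that was higher, at 33.9 and 88, against 4.2.

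The Hox genes, which set position along the body axis and the limb, had a lower median after removal than before treatment. Of 16 measured, 13 were at least 2-fold lower after removal and 0 higher, against 11 lower and 1 higher untreated, and limma called 11 lower after removal. The median was -2.31 after removal and -1.23 untreated, and without the filter, over 31 genes, -0.97 and -0.39. The distal limb genes Hoxd13, Hoxd11 and Hoxd10 were kept, with after-removal signals of 1.5, 1.2 and 1.5, against 188, 107.5 and 104 in p53-null cells. Hoxa11 had 13.7 and 60.7, against 151.5, and was enlarged, as were Hoxd8 and Hoxd9. Hoxa9, at 12.6 and 72, against 147, was past 2-fold only after removal, although its other probe set had 20.7 and 21.2, against 101.8, and was kept. Hoxc9 was the exception, with 9.9 and 48.1, against 9.2. All of these p53-Dnmt1-null signals are dim, and 9 of the 16 genes passed the filter only through p53-null arrays.

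Extracellular matrix genes had one of the lowest list medians, close to that of the Hox genes, and several were further below p53-null cells after removal than before treatment. Of 50 measured, 41 were at least 2-fold lower and 2 higher after removal, against 36 and 2 untreated, and limma called 38 lower and 2 higher. The median was -2.38 after removal and -1.91 untreated. Of the 50, 10 had passed the filter only through p53-null arrays, so their direction is partly fixed by the filter. Without the filter the medians over 52 genes were -2.25 and -1.81. The fibrillar collagen Col1a2 had 93.9 after removal and 355 untreated, against 5572 in p53-null cells. Col3a1 had 205 and 571, against 3533, and Col1a1 had 593 and 1372, against 4928. These collagens were lower than on the untreated p53-Dnmt1-null array and on both TSA arrays of that genotype, where Col1a2 was 352 and 696. The elastic fibre protein Fbln5 had 43.4 and 114, against 1874, and the calcification inhibitor Mgp 116 and 576.5, against 3623.

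Not every matrix gene followed. Decorin, Dcn, a collagen-binding proteoglycan, had 618 after removal and 1098 untreated, against 73.8 in untreated p53-null cells, and was kept higher, though p53-null cells had 234 and 552 at 24 and 48 h of TSA. Versican, Vcan, was reduced at the threshold, with 83.2 and 34.7, against 179, and was lost in 4 of 8 alternative settings. Elastin, Eln, had 29.5 and 235, against 419.7, and was a new difference by its brighter probe set, with the other at 1.9 and 21.4, against 181.4. Sparc, a collagen-binding matrix protein, had 2176 and 4694.5, against 5573.5. The collagen receptor Ddr2 was lost, with 509 and 162, against 407.

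Other enlarged decreases included a water channel, a preadipocyte factor and chemokines. The water channel Aqp1 had 10.8 after removal and 101 untreated, against 1101 in p53-null cells, and moved by -2.34 between the p53-Dnmt1-null arrays. The preadipocyte factor Dlk1, an imprinted gene, had 42.8 and 293, against 914. The surface antigen Thy1, a marker of fibroblasts, had 79.3 and 346, against 1043. All 3 were at their lowest of the 7 arrays after removal. The galectin-binding protein Lgals3bp had 39.9 and 218, against 473, and the cathepsin gene Ctsf 1.5 and 39.7, against 112. The chemokines Cxcl12, which guides stem and immune cells, and Cxcl15 had 199 and 1.5 after removal and 431 and 16.2 untreated, against 3072 and 500.5. Cxcl15 was enlarged in 4 of 8 alternative settings and kept in the others.

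Among the named enlarged increases, Hp and Ccl2 had the largest after-removal differences. The monocyte chemokine Ccl2 had 1322.5 after removal and 329 untreated in p53-Dnmt1-null cells, against 29.4 in p53-null cells, a difference of 5.03 ± 0.36 (SE, limma adjusted p = 0.000395). The neutrophil chemokine Cxcl1 had 631 and 283, against 81.1. Haptoglobin, Hp, the acute-phase protein that binds free haemoglobin, had 1179 and 481, against 2.1, and was 111 and 151 at 24 and 48 h of TSA. The chemokine Cxcl5 was a new difference, at 302 and 37.1, against 77.8, but p53-null cells had 426.5 and 155 with TSA, and against the mean of the 3 p53-null arrays it was a lost decrease. The list of 20 chemokines and cytokines went both ways, with 8 higher and 6 lower by size after removal, 4 and 5 by limma, and a median of 0.01 after removal and 0.44 untreated. Of the 20, 6 had passed the filter only through p53-Dnmt1-null arrays and 2 only through p53-null arrays. Ccl5, a T cell chemokine, turned, at 4.1 and 75, against 29.9, and Ccl8 was past 2-fold lower only after removal, at 7.3 and 83, against 53.1.

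Other enlarged increases included genes of chromatin, RNA splicing and transport. The chloride exchanger Clcn3 had 402 after removal and 145.5 untreated, against 10.6. Another Clcn3 probe set was enlarged too, at 122.5 and 43.3, against 4.9. Those at 225.8 and 142.9, against 22.6, and at 84.9 and 104.2, against 8.3, were kept. The Polycomb partner Mtf2 had 675 and 213, against 64.7, though another probe set had 79.6 and 94.5, against 37.7, and Resf1, a cofactor of retroelement silencing, 427 and 133, against 41.3. The splicing genes Luc7l3 and Srek1 had 639 and 283 after removal and 217 and 93.2 untreated, against 78.9 and 37.9. Cip2a, an inhibitor of the phosphatase PP2A, had 210.0 and 43, against 14.8. The ligand Wnt10a had 319 and 147, against 18.2, while Wnt4 was kept, at 715.5 and 906, against 3.5.

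Of 17 measured genes of the DNA methylation machinery, Dnmt1 included, 6 were at least 2-fold higher after removal and 2 lower, against 3 and 1 untreated, with 3 higher and 1 lower by limma and medians of 0.21 and 0.20. The chromatin remodeller Hells, which is needed for normal DNA methylation, had 498 after removal and 221 untreated, against 58, and was enlarged. The glycosylase Mbd4, which removes thymine from mismatches at CpG sites, had 144 and 37.7, against 8.5. Uhrf1, which brings Dnmt1 to replicating DNA, had 706 and 600.1, against 291. The de novo methyltransferases Dnmt3a and Dnmt3b, outside the rule for named genes, had 93.2 and 55.1 after removal and 113 and 34.1 untreated, against 78.9 and 29.8, differences under 2-fold.

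Imprinted genes went both ways. Of 27 measured, 10 were at least 2-fold lower after removal and 5 higher, against 8 and 3 untreated, and limma called 9 lower and 3 higher. The median was -0.44 after removal and -0.25 untreated. The growth factor Igf2 had 22.8 and 66.2, against 1205, and was enlarged, while the growth factor receptor adaptor Grb10 and the zinc finger gene Plagl1 were kept, Grb10 at 19.3 and 30.6, against 636, and Plagl1 at 174.5 and 129, against 1592. Peg3, a zinc finger gene expressed from the paternal allele, was kept higher, at 1052 and 958.5, against 26.9, but another probe set had 2007.4 and 504.5, against 29.8, and would be enlarged. The noncoding RNA Meg3, a neighbour of Dlk1 in the same imprinted cluster, had 45.6 and 84.9, against 436, so both genes of that cluster were lower. The creatine synthesis gene Gatm was enlarged on the higher side, and Ube3a, a ubiquitin ligase, was past 2-fold only after removal, at 357 and 127, against 137. Against the mean of the 3 p53-null arrays Ube3a was under 2-fold both after removal and untreated. Array signals do not distinguish alleles.

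Reduced decreases were few, 17 in all. Cyba, a subunit of the NADPH oxidase, had the largest move, with 267 after removal and 18.7 untreated, against 926 in p53-null cells, and 32.1 and 4.4 at 24 and 48 h of TSA. The retinoic acid binding proteins Crabp1 and Crabp2 had 23.3 and 26.6 after removal and 2.1 and 6.7 untreated, against 802 and 780.0. The BMP antagonist Grem1 had 73.5 and 28.3, against 385. On the higher side 46 were reduced, among them the retinaldehyde dehydrogenase Aldh1a1, at 27.9 and 139.9, against 1.8, apolipoprotein Apoe, at 168 and 536, against 31.7, and the retinol carrier Rbp4, at 180.2 and 502, against 20.9. The slow muscle troponin Tnni1 had 74 and 253, against 3.7.

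Lost increases outside epithelium included the matrix proteoglycan Spock2, at 2.4 after removal and 100.2 untreated, against 5.1, and the IGF binding protein Igfbp6, at 641 and 1940.0, against 503.5. Cd34, a surface sialomucin of progenitor and endothelial cells, had 29.5 and 139, against 59.1, and Aplp1, an amyloid precursor-like protein, 75.8 and 292, against 98.2. Each of these after-removal values differed by under 2-fold from the untreated p53-null array on the offset log2 scale. Against the mean of the 3 p53-null arrays Cd34 and Aplp1 were instead new differences by a 2-fold move and Spock2 a turned one. Among lost decreases the copine Cpne2 had 64.2 and 7.6, against 111, the circadian repressor Nr1d2 128 and 35, against 102, and the centrin Cetn2 124 and 34.9, against 87.8.

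Some differences were present only after removal. With a move of at least 2-fold from untreated p53-Dnmt1-null cells there were 250 on the higher side, 2.66% of all tested, and 409 on the lower, 4.36%, and with a smaller move 503, 5.36%, and 530, 5.64%. With arrays scaled to the same median the larger moves numbered 350 on the higher and 314 on the lower side, the opposite balance. The kinase Taok1 had 840.0 after removal and 140.4 untreated, against 108 in p53-null cells, a difference of 2.83 ± 0.41 (SE, limma adjusted p = 0.005). Those of its other 3 probe sets that passed the filter had 100.5 and 132.8, against 105.2, and 174.5 and 51.0, against 103.9. Both were under 2-fold after removal, so the difference rests on the brightest probe set. The helicase Dhx36 had 488 and 89.6, against 83.2, the zinc finger gene Zfp148 798 and 175, against 141, and the La protein gene Ssb, which binds new RNA polymerase III transcripts, 553 and 126, against 121. Other Zfp148 probe sets differed by 1.43, 1.29 and 0.92 after removal. Their moves from untreated p53-Dnmt1-null cells were 1.13, 0.90 and 0.61, so they do not all share that fate. On the lower side the gamma-secretase subunit Aph1a had 127 and 667, against 753, though its other probe sets differed by -0.62 and -0.22 after removal. Superoxide dismutase, Sod1, had 385 and 1678, against 1458, and Polr2a, the large subunit of RNA polymerase II, 220.1 and 959, against 536. Against the mean of the 3 p53-null arrays Polr2a was instead a lost increase. Haem oxygenase, Hmox1, had 93.6 and 298, against 284.

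The nuclear noncoding RNA Malat1 had the largest turn. Its brightest probe set had 1236 after removal and 54.4 untreated, against 136 in untreated p53-null cells, and 546 and 650.1 in p53-null cells with TSA. Between the p53-Dnmt1-null arrays it moved by 4.24 (limma adjusted p = 0.0254). That call was lost with no intensity trend, with no filter, with quantile normalization and without either TSA array of p53-Dnmt1-null cells. Of its other 4 probe sets, 2 gave 637.9 and 456.0 after removal and 30.6 and 40.7 untreated, against 36.9 and 66.8, and the remaining 2 were dim, at 2.4 and 58.7 after removal. Features that became higher by a 2-fold move came from longer genes, with a median genomic span of 33.1 kb, than those that became lower, with 18.1 kb, against 21.9 kb over all named genes. The Actb ratio of 3' to 5' signal was highest on the after-removal array, as given above, and its part in these values was not tested.

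Of 55 measured cell cycle genes, 27 were at least 2-fold higher and 2 lower after removal, against 14 and 0 untreated, with medians of 0.93 and 0.58. Among the 55, 6 had passed the filter only through p53-Dnmt1-null arrays. Limma called 8 higher. The spindle protein Tpx2 had 761 after removal and 295 untreated, against 202, though another probe set differed by 0.41, the replication factor Gins1 347 and 129, against 75.4, and the checkpoint kinase Chek1 146 and 64.4, against 37.3. The proliferation marker Mki67 had 679.8 and 309, against 249.8, and did not pass limma (adjusted p = 0.212). The spread behind that test includes the 24 h and 48 h TSA arrays of p53-Dnmt1-null cells, which had 54.4 and 225. Of 13 inhibitors of cyclin-dependent kinases and D cyclins, 8 were lower after removal by size and 4 by limma, with a median of -1.19 against -0.70 untreated. Cyclin D1, Ccnd1, had 512 and 854, against 1911, and the inhibitor Cdkn2b 136 and 205, against 483. Other Ccnd1 probe sets had 445.2 and 386.1, against 850.5, and 659.4 and 582.3, against 1428.0. The move of Ccnd1 between the p53-Dnmt1-null arrays therefore has no agreed direction.

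Known p53 targets, measured here in cells that all lack p53, had a median of -0.23 after removal and -0.20 untreated over 29 genes, with 3 higher and 9 lower by size and 1 and 5 by limma. The shares over all features were 14.5% higher and 19.1% lower by size. The proapoptotic gene Pmaip1 was enlarged, at 141 and 59.3, against 3.0, and thrombospondin, Thbs1, was kept lower, at 199.7 and 156, against 2149. The p21 gene, Cdkn1a, had 34 and 61.1, against 106.

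Of 27 interferon-stimulated genes 25 had a lower log2 value on the after-removal array, with a median move of -0.82 against -0.13 over all features, where 5438 of 9390 moved down. Against p53-null cells 2 were at least 2-fold higher and 7 lower after removal, 1 and 6 by limma, while untreated 6 were higher and 4 lower. Of the 27, 8 had passed the filter only through p53-Dnmt1-null arrays and 3 only through p53-null arrays. The antiviral gene Ifit1 had 3.8 after removal and 46.6 untreated, against 71.8, and the interferon regulator Irf7 17.9 and 62.2, against 68.1. Usp18, an interferon-induced protease, was kept, at 16 and 21.4, against 125, and the 24 h and 48 h TSA arrays of the p53-Dnmt1-null genotype had 156 and 165.

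All 14 antigen presentation genes had lower log2 values after removal than untreated on the p53-Dnmt1-null arrays, the median move being -0.72 and the median difference from p53-null cells 0.48 after removal and 0.83 untreated. Against p53-null cells 6 had been at least 2-fold higher untreated and 0 lower, and after removal 2 were higher and 2 lower, and limma called 2 lower. Over all features 14.5% were higher and 19.1% lower by size after removal. Of the 14 genes, 3 had passed the filter only through p53-Dnmt1-null arrays. The peptide transporter Tap1 had 2.0 and 56.7, against 41.9, and the immunoproteasome subunit Psmb8 24.2 and 66.3, against 2.2. The MHC class I gene H2-K1 had 855 and 1707, against 463, while 2 of its other probe sets were below p53-null cells after removal, at 132.4 and 19.3, against 268.6 and 35.4. Beta-2 microglobulin, B2m, the partner of MHC class I, had 859 and 1560.4, against 2660.0, but its other probe set had 1123.3 after removal and 757.8 untreated, against 1718.0, so its move between the p53-Dnmt1-null arrays has no agreed direction. Psmb8, Psmb9 and Psmb10 belong to both lists.

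Of 27 measured genes known to be induced by histone deacetylase inhibitors, 4 were at least 2-fold higher and 10 lower, 2 and 7 by limma, with a median of -0.32 after removal and -0.06 untreated. Transglutaminase Tgm2 was reduced, at 668 and 1763.5, against 234, but kept on another bright probe set, at 887.5 and 1073.6, against 169.1, and the growth factor Ccn2 was kept lower, at 257 and 472, against 1854. The metallothionein Mt1 had 199.7 and 278, against 737, with 564 and 486 in p53-Dnmt1-null cells at 24 and 48 h of TSA. Over all features 14.5% were higher and 19.1% lower by size after removal, and the counts of this and the next lists are read against that. Cholesterol synthesis genes had a median of 0.44 after removal and 0.62 untreated over 19 members, with 5 higher and 1 lower by size and 0 by limma. An unadjusted limma p under 0.05 was found for 7 of the 19, and for 3576 of all 9390 features, so that count does not set the list apart. Stress genes had 6 higher and 7 lower of 29, 4 and 5 by limma. Among 15 housekeeping genes 1 was higher and 3 lower, 5 and 2 by limma, with a median of 0.43. The ribosomal protein gene Rplp0 differed by 0.79, and the transferrin receptor Tfrc had 1324 and 696, against 236.

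**Figure D4:**
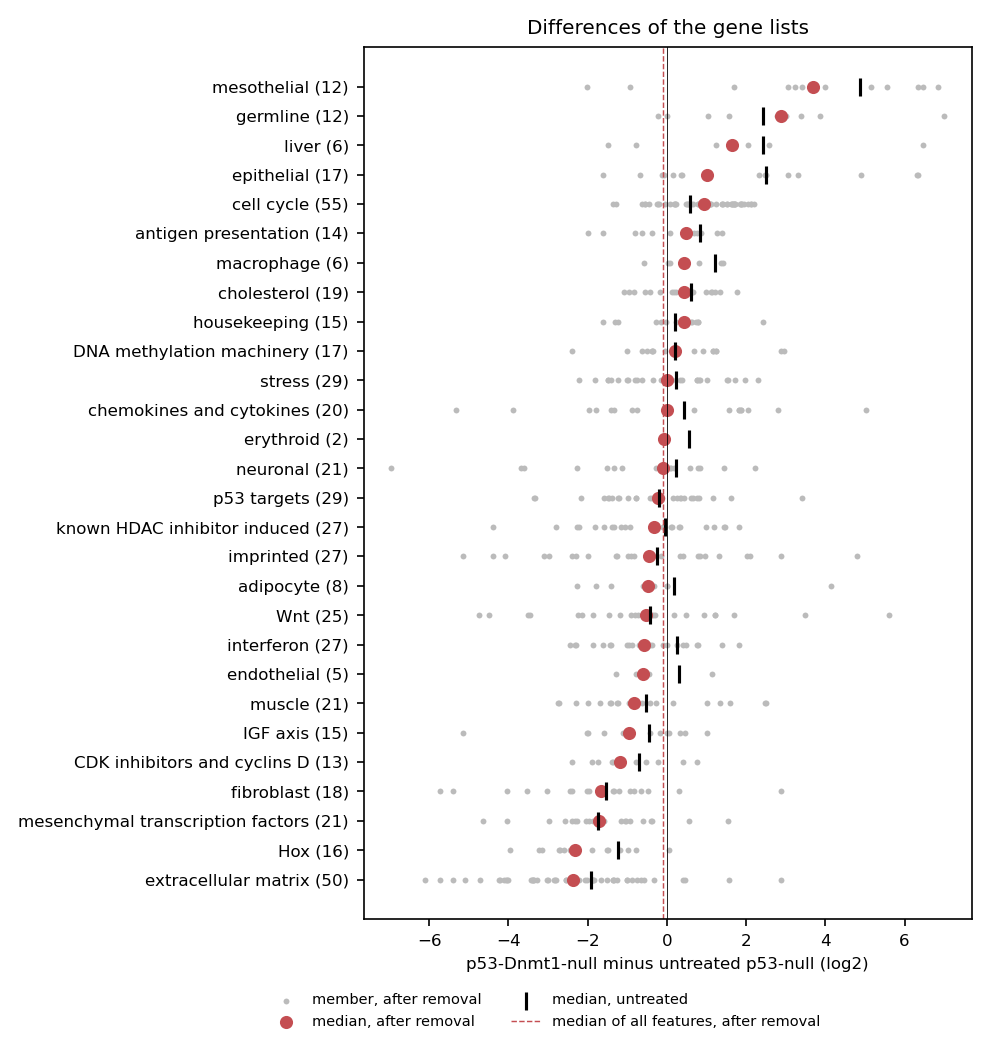
Log2 differences from untreated p53-null cells for 28 gene lists, ordered by median, with the number of measured members in brackets. Grey points are members after TSA removal, red circles their median (3.70 for mesothelial and -2.38 for extracellular matrix genes), black bars the median in untreated p53-Dnmt1-null cells and the dashed line the median of all features.

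The remaining lists covered signalling pathways and markers of other tissues. Over all features 14.5% were higher and 19.1% lower by size after removal. Through p53-Dnmt1-null arrays alone 5 Wnt, 6 muscle and 6 neuronal genes passed the filter, and through p53-null arrays alone 8, 4 and 1. Of 25 Wnt pathway genes 5 were higher and 9 lower after removal, 2 and 7 by limma, with the antagonist Dkk2 kept at 0.8 and 1.0, against 263, and the agonist Rspo2 at 8.5 and 16.1, against 517. Of 15 genes of the IGF axis 1 was higher and 7 lower by size and 4 lower by limma, with a median of -0.96 against -0.45 untreated. Of 21 muscle genes 5 were higher and 9 lower, 2 and 7 by limma. Of 21 neuronal genes 2 were higher and 7 lower, 1 and 5 by limma, among them Stmn2, a tubulin regulator, at 5.5 and 13.8, against 193. Of 8 adipocyte genes 1 was higher and 3 lower, 1 and 1 by limma, and lipoprotein lipase, Lpl, was the higher one, at 931 and 517, against 41.5.

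Few markers of blood, vessel and liver cells passed the filter. Over all 9390 features 3576 had an unadjusted limma p under 0.05 after removal, and the unadjusted counts here are read against that. Of 21 macrophage markers with a probe set 6 did, with summed signals of 272.7 after removal and 436.4 untreated, against 168.6 in p53-null cells, and 2 were higher by size and 0 called by limma, while 1 had an unadjusted p under 0.05. Of 15 endothelial markers 5 did, with sums of 202.7 and 383.8, against 263.8, 1 higher and 1 lower by size and 0 by limma, while 2 had an unadjusted p under 0.05. Of 9 erythroid markers 2 did, with sums of 99 and 170.7, against 104.9, and 0 passed 2-fold, limma or an unadjusted p under 0.05. Of 14 liver markers 6 did, with sums of 1595 and 1655, against 129.2, 4 higher and 1 lower by size and 2 higher by limma, and Hp alone made up most of the after-removal sum. Ptprc, Pecam1 and Alb, given above, were among those that did not pass. Of those that passed, 2 macrophage, 1 endothelial and 3 liver markers did so only through p53-Dnmt1-null arrays.

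The 4 TSA arrays were not used to assign fates, and they show where the after-removal value lies among all arrays of these cells. Of the 409 features that became lower by a 2-fold move, 405, or 99.02%, were lower after removal than on all 4 TSA arrays, against 36.6% of all features. Of the 250 that became higher, 234, or 93.6%, were above all 4, against 26.2% of all features. Enlarged features were beyond all 4 in 86 of 88 cases on the lower and 50 of 52 on the higher side. Because each was chosen for an extreme after-removal value, a high share is built into this count. Reduced increases were below both p53-Dnmt1-null TSA arrays in 45 of 46 cases, against 49.6% of all features, and reduced decreases above both in 8 of 17, or 47.1%, against 34.2%. They were beyond all 4 TSA arrays in 2 of 46 and 0 of 17 cases. Reduced features were chosen for a 2-fold move from the untreated p53-Dnmt1-null array, so their shares are partly built in too.

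Named genes were also placed on chromosomes through RefSeq annotation. The median after-removal difference was -0.14 over all 8287 placed genes and lay between -0.24 and 0.16 on 15 of the 20 chromosomes. It was -0.65 on chromosome 10, -0.64 on X and -0.59 on 7, where 137 of 387, 85 of 241 and 173 of 588 genes were at least 2-fold lower, and 0.37 on chromosome 18 and 0.29 on 16. Untreated p53-Dnmt1-null cells had medians of -0.32, -0.40 and -0.24 on chromosomes 10, X and 7, against 0.06 over all, and 0.31 and 0.16 on 18 and 16. The medians of chromosomes 7 and 10 moved by -0.34 and -0.30 between the p53-Dnmt1-null arrays, against -0.15 over all placed genes. DNA copy number was not measured, and its part in these values was not tested.

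**Figure D5:**
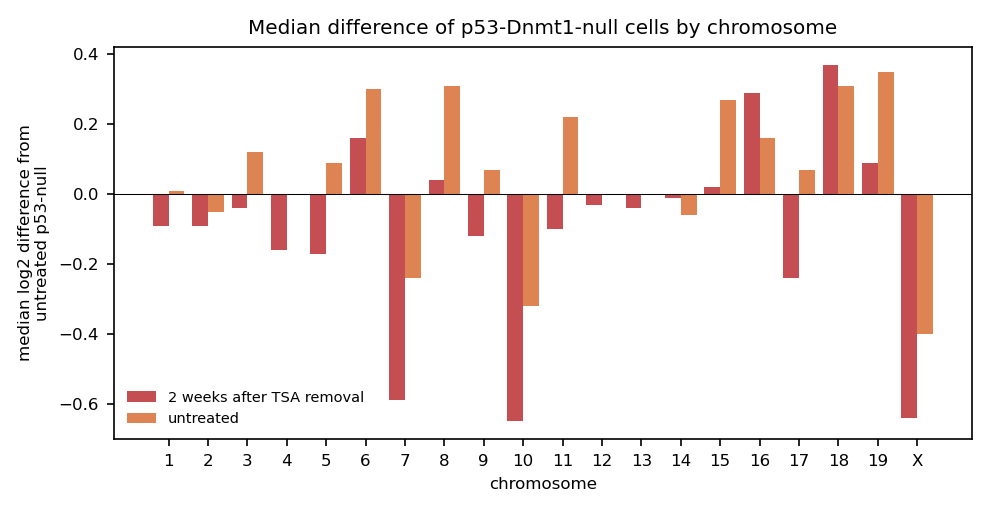
Median log2 difference from untreated p53-null cells of the named genes on each chromosome, for p53-Dnmt1-null cells 2 weeks after TSA removal (red) and untreated (orange), 1 array each. Chromosomes 7, 10 and X lie lowest on both arrays, at -0.59, -0.65 and -0.64 after removal, and chromosome 18 highest after removal, at 0.37.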

How the data were processed

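Total RNA was extracted with TriZol and labelled for Affymetrix arrays, per the labels' protocols. The authors deposited linear MAS5 signal intensities for 22690 probe sets on 7 arrays, per the submitters' processing notes. These deposited intensity values already shared a 2% trimmed mean of 150.1 on every array. The MAS5 version is unknown here. Probe sets were named from GEO's platform annotation (20393 with 1 symbol, 691 with several, 1606 with none), and 20364 symbols were updated through RefSeq identifiers of GRCm38.p6. Where a gene had several probe sets, the one brightest on average in log2 stood for it. The 64 control probe sets were left out, and a feature was tested if its signal passed 45.6, the median over all arrays, on 1 or more of them. This left 9390 features, 8298 of them named.

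Differences of log2(signal + 11.4), the offset being the pooled 25th percentile, were described by a 2-fold rule. Limma 3.58.1 in R 4.3.3 was fitted to 5 groups over the 7 arrays, with 24 h and 48 h pooled within genotype (2 residual degrees of freedom, prior 5.75), a trend on intensity, and Benjamini-Hochberg adjustment over all features at 0.05. A group with a single array was taken to vary as much as those pairs. With 1 array per group, precision is limited throughout.

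The named genes were Dnmt1, the 12 largest differences in each direction, the 10 largest moves in each fate class among features reaching 100 on 1 of the 3 arrays, and in each gene list the 6 largest differences with any enlarged, reduced, lost, turned or new member. The members, the 28 lists and the tests were chosen with earlier results of these data known. Alternatives covered the offset, the filter, scaling, probe sets, the threshold, the level compared with and left-out arrays.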

Additional observations from a re-analysis of the deposited data

Results flagged for a closer look

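Of the 64 control probe sets, which entered no comparison, 6 were at least 2-fold higher on the after-removal array than on the untreated p53-null array and 2 were lower. The values of those 6 are given here because of that difference. The transferrin receptor controls for the 3' end, the middle and the 5' end of the RNA had 140.7, 48.4 and 42.9 after removal and 62.8, 10.9 and 15.9 on the untreated p53-Dnmt1-null array, against 16, 4.6 and 5.8 on the untreated p53-null array. The brighter and the dimmer control for the B2 repeat, a short interspersed element, had 8689.9 and 334.9 after removal and 5797.3 and 232.1 untreated, against 3925.6 and 127.4. A control for the B1 repeat, which is not among the 6, went the other way, with 2502.5 after removal and 2515.6 untreated, against 4260.2. The 5' probe set of the BioD spike-in, which is added to the sample during processing, had 381.3 after removal and 180.2 untreated, against 129.0.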

How the results depend on the processing

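No named gene that was at least 2-fold different after removal changed direction under the alternatives run. Direction was not checked for named genes under 2-fold. Of the 269 named genes, 56 fell under the threshold at 3-fold and 42 with the offset at the pooled median. Against the mean of the 3 p53-null arrays 15 fell under it and 8 were newly past it. Of 257 with a fate, another fate was given to 147 at 3-fold, 106 with that offset, 41 against that mean, 18 with arrays scaled to the same median and 14 with quantile normalization. With the offset at the pooled median, after-removal differences numbered 901 higher and 1156 lower and untreated ones 508 higher, with 296 kept higher, 16 and 20 enlarged, 21 and 3 reduced, 48 and 5 lost by a 2-fold move and 145 and 131 new by such a move (higher, then lower, as throughout). At a 3-fold threshold the counts were 578 and 837 after removal, 401 and 490 untreated, 265 and 402 kept, 3 and 8 enlarged, 5 and 2 reduced, 23 and 3 lost and 45 and 70 new. With every probe set on its own there were 2280 higher after removal, 1505 lower untreated, 83 enlarged higher, 27 reduced lower, 78 lost lower and 592 new higher. Without the filter 197 higher differences were lost by a 2-fold move, and limma called 430 and 619 after removal and 124 and 134 untreated. With a signal of at least 100 on 1 of the 3 arrays, 60 and 19 were lost and 249 were new lower. Quantile normalization gave 26 reduced lower and 54 lost lower, and the mean of the 3 p53-null arrays 55 lost lower. An alternative chosen after seeing the data, at least 2-fold from every p53-null array, left 890 higher after removal and 557 higher untreated. Leaving out each 24 h or 48 h array in turn, limma called between 686 and 1035 higher and between 980 and 1356 lower after removal. The single limma call between the p53-Dnmt1-null arrays, Malat1, went to 0 calls with no intensity trend, with no filter, with quantile normalization and without either TSA array of that genotype, so the leave-one-out counts ranged from 0 to 1. Scaling the arrays to the same median set the median after-removal difference to 0.00, against -0.10, with 1566 and 1590 after removal, 76 and 62 enlarged and 350 and 314 new by a 2-fold move. No paired analysis was possible because each group has 1 array. Signals near the offset limit what dim genes can show.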
